A study of Rattus norvegicus with 3 samples.

Results

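Reads of 9 myelin and oligodendrocyte genes were counted in the hippocampus of wild-type healthy rats that had received Q808, an anticonvulsant candidate known by this code name, by gavage for 28 days. The genes were chosen by name, with earlier results of these data known, and matched by their rat gene identifier. They comprise 6 genes for myelin proteins (Mbp, Mag, Mog, Mobp, Cnp and Cldn11) and 3 genes for transcription factors of the oligodendrocyte lineage (Olig1, Olig2 and Sox10), out of 18560 genes in the table of replicate 2. The labels describe 3 samples, all of the same treated group, and an untreated group was not analysed here, so no value below measures an effect of Q808. The labels do not give the age, strain, sex or dose, nor do they say that each sample came from its own animal. The count columns carry the prefix Con_Q, and whether it stands for a control is not known.

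All 9 genes had a row in replicate 2, which held 15417009 counts. None had a row in the tables used here for replicates 1 and 3, which hold the first 12 and 307 genes in alphabetical order. Every level of the 9 genes is therefore that of a single library with no replicate check. Intervals below are 95% exact (Clopper-Pearson) intervals that cover counting error only, since molecular identifiers were not reported and repeated reads of a molecule may be counted.

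Myelin is the stacked membrane that oligodendrocytes wrap around axons in the central nervous system, where it insulates the axon and speeds conduction. Its compact part is held together by small basic and membrane-spanning proteins, while other proteins line the layer facing the axon, the outer surface or the tight junctions between the layers. Oligodendrocytes arise from precursors that persist in the adult brain. In mice, Olig2 is needed to form the lineage and Sox10 for its maturation, and Sox10 acts on the promoters of several myelin genes. In the hippocampus, myelinated fibres run mainly in the alveus, the fimbria and the layers crossed by incoming axons.

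The myelin protein genes gave more reads than the transcription factor genes. The median of the 6 myelin genes was 419 CPM (counts per 1000000 counts of the library) and that of the 3 transcription factor genes was 73.1 CPM. This is a ratio of read yields of 5.73 (95% counting interval 5.39 to 6.09). Without Olig2 or Sox10 it was 3.10 or 3.41, and it was above 1 whichever of the 9 genes was left out. CPM is not corrected for transcript length, and no transcript lengths of the counted gene models were at hand, so ratios between genes are those of reads and not of molecules. For 2 genes to be equal per length, their transcripts would have to differ in length by the ratio of their reads. With a sample of bulk tissue, fewer cells of a type and less RNA per cell cannot be told apart.

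Among the proteins of compact myelin, Mbp (GeneID 24547), which encodes the basic protein that joins the cytoplasmic faces of the membrane, had 85995 counts in replicate 2. This corresponds to 5578 CPM (5541 to 5615), and no other gene of the table had a higher count. Mbp alone made up 72.6% of the counts of the 9 genes. Mobp (GeneID 25037), which encodes another small basic protein of central myelin, had 7447 counts, or 483 CPM (472 to 494). Mbp thus stood far above the other compact myelin gene on the list, and Mobp was in turn exceeded by 273 genes of the table.

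Cnp (GeneID 25275) encodes the cyclic nucleotide phosphodiesterase of non-compact myelin, where it keeps cytoplasmic channels open. It had 8262 counts, or 536 CPM (524 to 548). This placed it second among the 9 genes, a factor of 10.4 (10.2 to 10.6) below Mbp. Cldn11 (GeneID 84588) encodes the claudin of the tight junctions between myelin layers and had 5460 counts, or 354 CPM (345 to 364).

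The genes for the 2 surface glycoproteins came last in the myelin class. Mag (GeneID 29409) encodes an adhesion receptor of the innermost layer next to the axon and had 4746 counts, or 308 CPM (299 to 317). Mog (GeneID 24558) encodes a glycoprotein of the outermost surface of the sheath, known as a target of antibodies in demyelinating disease. Its count was 1670, or 108 CPM (103 to 114). Cldn11 had 1.15 times (1.11 to 1.20) and Cnp had 1.11 times (1.08 to 1.14) the reads of the next gene in the order, Mag and Mobp respectively. All neighbours in the order of the 9 genes had counting intervals that did not overlap, but the spread between samples is unknown for them. The range of the myelin genes spanned 4.95-fold without Mbp and 51.5-fold with it.

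Of the transcription factor genes, Olig1 (GeneID 60394), a basic helix-loop-helix factor of oligodendrocyte maturation, had the most reads with 3043 counts, or 197 CPM (190.4 to 205). Sox10 (GeneID 29361), a factor of the SOX family with a DNA-binding HMG box, had 1127 counts, or 73.1 CPM (68.9 to 77.5). Olig2 (GeneID 304103), the helix-loop-helix factor that specifies the lineage, had 742 counts, or 48.1 CPM (44.7 to 51.7). Olig1 and Olig2 are neighbours in the genome with no other protein-coding gene between them in RefSeq, and Olig1 had 4.10 times the reads of Olig2 (3.78 to 4.45). Reads of Sox10 exceeded those of Olig2 by a factor of 1.52 (1.38 to 1.67).

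**Figure D1:**
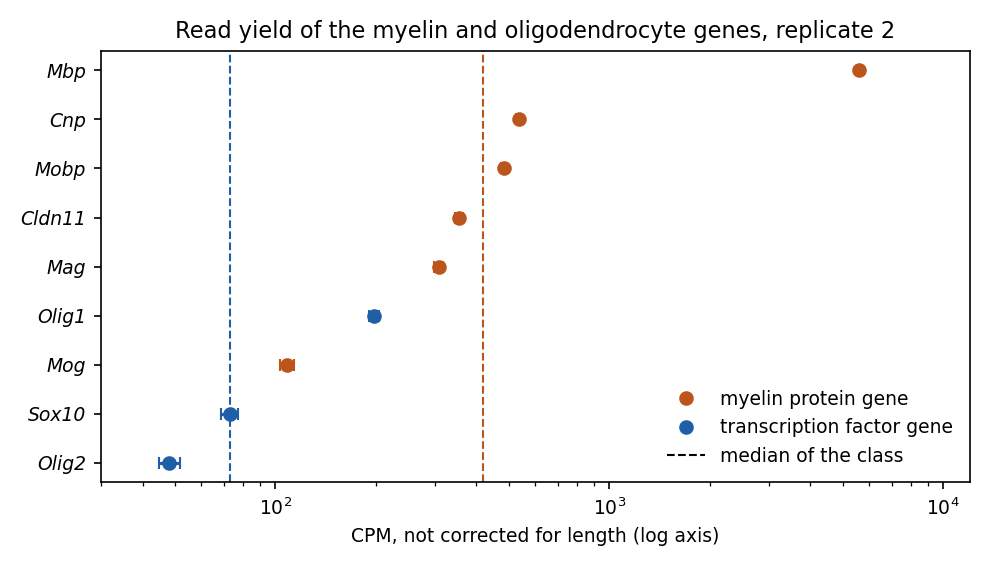
Read yield of each of the 9 genes in replicate 2, in CPM on a log axis, with bars for the 95% counting interval and dashed lines for the medians of the myelin protein genes (419 CPM) and the transcription factor genes (73.1 CPM). Mbp stands apart at 5578 CPM, and Olig1 lies between Mag and Mog.

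The classes were not fully separate. Of the 18 pairs of a myelin gene and a transcription factor gene, the myelin gene had more reads in 17. The exception was Mog, which had 0.549 times the reads of Olig1 (0.517 to 0.583). The ratios reached from this value to the 116 (108 to 125) of Mbp over Olig2, with a median of 5.62, and 14 of the 18 were over 2-fold. The lowest ratios among the other pairs were those of Mog over Sox10 at 1.48 (1.37 to 1.60) and of Mag over Olig1 at 1.56 (1.49 to 1.63). In these pairs, a difference in transcript length of that size would be enough to make the genes equal per length. For Mbp, the reads exceeded those of the best-read factor, Olig1, by a factor of 28.3 (27.3 to 29.3). Mbp carried most of the sum of a class: the 6 myelin genes together had 23.1 times (22.5 to 23.8) the reads of the 3 factors, 113580 against 4912 counts.

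Set against the whole table, all 9 genes reached 10 counts, as did 77% of all genes. At least 100 CPM was reached by 7 of the 9, among them all 6 myelin genes and Olig1 of the factors, against 13.1% of all genes. The median of the 9 genes was 308 CPM and that of all 18560 genes was 12.7 CPM. Together the 9 genes took 0.769% of the counts. The myelin genes other than Mbp and Mog had more reads than 97.2% to 98.8% of genes. Mog had more than 88.0%, Olig1 more than 94.4%, Sox10 more than 81.8% and Olig2 more than 73.7% of genes. Read yields of the factors were thus above the middle of the table, though below those of 5 myelin genes.

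**Figure D2:**
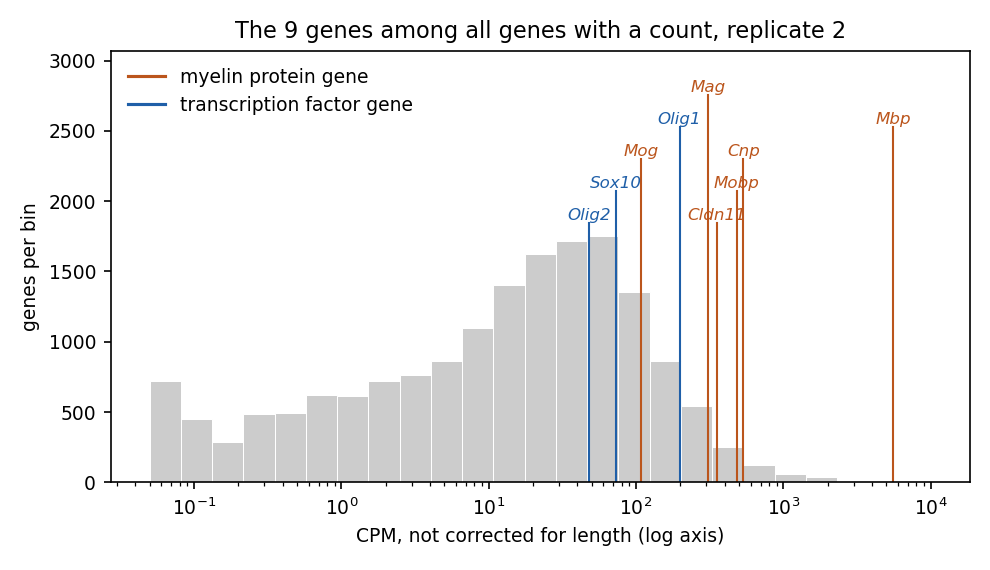
Distribution of CPM in replicate 2 over all genes with at least 1 count (grey bars, genes per bin, log axis), with a line for each of the 9 genes. The 6 myelin protein genes and Olig1 lie at or above 100 CPM, and Sox10 and Olig2 lie below it at 73.1 and 48.1 CPM.

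The upstream sequences were read from the RefSeq promoter table (assembly GRCr8), which gave 7 windows for 6 of the 9 genes; Mog, Olig1 and Sox10 are named only. Those of Mobp, Cnp and Olig2 are shown, as an example of each class and because the Mobp window is unusual in its letters. Each is the 250 bases before the annotated start, on the strand of the gene. Capitals mark matches on either strand to a pair of SOX-type motifs, an E-box and the TATA box. The first SOX-type motif has the letters ACAAAG and reads CTTTGT when it lies on the other strand. For the second these are ACAATG and, when reversed, CATTGT. The E-box searched was CAGCTG, which is the same on both strands. The TATA box searched was TATAAA, which becomes TTTATA when reversed. No match overlapped another.
Mobp (chr8:128746982-128747231, plus strand): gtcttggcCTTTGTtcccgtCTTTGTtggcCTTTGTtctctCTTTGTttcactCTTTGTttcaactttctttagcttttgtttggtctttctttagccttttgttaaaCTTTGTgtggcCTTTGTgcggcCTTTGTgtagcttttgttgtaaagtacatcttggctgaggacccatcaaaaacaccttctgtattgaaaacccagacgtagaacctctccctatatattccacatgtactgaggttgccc
Cnp (chr10:86011254-86011503, plus strand): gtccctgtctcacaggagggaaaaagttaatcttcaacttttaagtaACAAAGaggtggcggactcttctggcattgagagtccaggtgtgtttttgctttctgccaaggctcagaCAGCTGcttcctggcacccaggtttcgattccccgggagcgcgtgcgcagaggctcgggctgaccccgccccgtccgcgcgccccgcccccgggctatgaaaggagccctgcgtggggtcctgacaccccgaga
Olig2 (chr11:43961335-43961584, plus strand): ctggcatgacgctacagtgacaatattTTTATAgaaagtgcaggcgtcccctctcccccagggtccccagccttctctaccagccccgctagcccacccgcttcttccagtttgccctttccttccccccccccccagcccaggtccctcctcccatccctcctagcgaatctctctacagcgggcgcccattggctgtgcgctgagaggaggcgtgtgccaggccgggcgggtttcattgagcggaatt

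The Mobp window held 8 matches to ACAAAG, all as CTTTGT on the strand of the gene, in a run of 5 and a run of 3 with a T-rich stretch between them. Of 33469 windows of the same length in the table, 16.3% held at least 1 such match and 2 held 8 or more, that of Mobp included. The minimum of 8 equals the count of the Mobp window itself, so this number describes that window and is not a test. The GC content of the Mobp window was 41.6%, against a median of 51.2% over all windows. Cnp held 1 ACAAAG and 1 CAGCTG, the latter found in 11.97% of all windows, and had a GC content of 60.4%. Olig2 held none of the SOX-type letters or the E-box in this window and 1 TTTATA, found in 12.9% of all windows. Mag held 1 CTTTGT, and Cldn11 held no match to any of the 4 motifs. Mbp has 2 windows in the table, 79.6 kb apart, and its single row of counts does not separate reads by start. The upstream one held no match, while the other held 1 CTTTGT, 2 matches to ACAATG, which 11.1% of all windows hold, and 1 CAGCTG. These matches describe the letters of a window and were not tested for binding, and the counts do not bear on which start was used.

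Within the deposited annotation, all 6 myelin genes carried the Gene Ontology term myelin sheath and none of the 3 factors did. This term was given to 191 genes with a median of 241 CPM, of which 151 (79.1%) reached 100 CPM, against 13.1% of all genes. The 6 genes held 7.998% of the counts under that term, so most of its reads came from other genes. A narrower term, structural constituent of myelin sheath, covered 10 genes, and Mbp and Mobp held 60.2% of its counts. The term oligodendrocyte differentiation was given to 42 genes with a median of 48.6 CPM, among them Cnp and all 3 factors. Olig1, Sox10 and Cnp lay above this median and Olig2 just below it. In RefSeq (GRCr8), Mog overlaps the zinc finger gene Zfp57, which had 173 counts, and the strand setting of the counting is not given, so reads in the shared stretch could not be told apart. Mbp and Mag overlap only long non-coding genes that have no row in the table, and the other 6 genes overlap no annotated gene.

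Among stage lists of the lineage, the median read yield was highest for the mature list, lower for the precursor list and lowest for the newly formed list. The lists overlapped, with ranges of 20.2 to 650 CPM, 3.50 to 228 CPM and 0.130 to 271 CPM in that order. These medians compare different genes, uncorrected for length, and do not measure numbers of cells. Over all genes, 77% reached 10 counts and 13.1% reached 100 CPM. The list of mature oligodendrocyte genes had all 10 of its measured genes at 10 counts or more and 3 at 100 CPM, with a median of 68.2 CPM. It was led by Tf, the transferrin gene, at 650 CPM, Apod, a lipid carrier gene, at 171 CPM, and Hapln2, a matrix link protein gene of the nodes of Ranvier, at 105 CPM. All 9 precursor genes reached 10 counts, and their median was 26.1 CPM. The highest were Ptprz1, a receptor phosphatase gene also used by astrocytes, at 228 CPM, Pdgfra, the growth factor receptor that defines precursors, at 60.2 CPM, and the proteoglycan gene Vcan at 34.6 CPM. Of 8 genes of newly formed oligodendrocytes, 7 reached 10 counts and the list median was 11.8 CPM, close to that of all genes. Bcas1, a marker of early myelinating cells that mature cells also express, had 271 CPM, Cemip2 had 26.4 CPM and Gpr17, a receptor of the transition stage, had 19.6 CPM. Neu4 had 2 counts.

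The wider list of lineage transcription factors had a lower median read yield than the 3 named ones. Of its 22 genes 21 reached 10 counts, against 77% of all genes. The list median was 26.4 CPM against 73.1 CPM for Olig1, Olig2 and Sox10. Zeb2, a repressor of inhibitory signals to the lineage that other cells also use, had 286 CPM, and Myrf, the factor that drives myelin genes in maturing cells, had 118 CPM. Tcf4, a partner of helix-loop-helix factors, had 64.3 CPM. Zeb2 and Myrf were the 2 of the 22 genes of this list that reached 100 CPM, against 13.1% of all genes. Nkx6-1 was under 10 counts with 4. These are reads of bulk tissue, so the list median is not a level within the lineage.

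All 18 further genes of myelin and membrane proteins reached 10 counts and 11 reached 100 CPM, and their median was 145 CPM. Over all genes, 77% reached 10 counts and 13.1% reached 100 CPM. Tppp, a tubulin-binding protein gene of oligodendrocytes, had 588 CPM, the tetraspanin gene Cd81 had 510 CPM and Mal, a proteolipid gene of myelin rafts, had 312 CPM. Genes of myelin lipid synthesis had a median of 80.7 CPM over 18 detected genes. Scd2, a fatty acid desaturase gene, reached 2804 CPM, followed by the lipid transporter gene Abca2 (410 CPM) and the sterol synthesis gene Hmgcs1 (355 CPM), and none of these is limited to oligodendrocytes. All 9 genes of the axon-glia junction reached 100 CPM (median 313 CPM), led by the mostly neuronal genes Ank2 (778 CPM), Nrcam (713 CPM) and Cntn1 (593 CPM), with Mag counted here too. Signals and receptors of myelination had a median of 50.4 CPM over 16 detected genes. Rtn4, the gene of the myelin inhibitor Nogo, had 782 CPM, Lingo1 had 262 CPM and the adhesion receptor gene Adgrg1 had 182 CPM. Counts of bulk tissue do not tell which cells these reads came from.

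**Figure D3:**
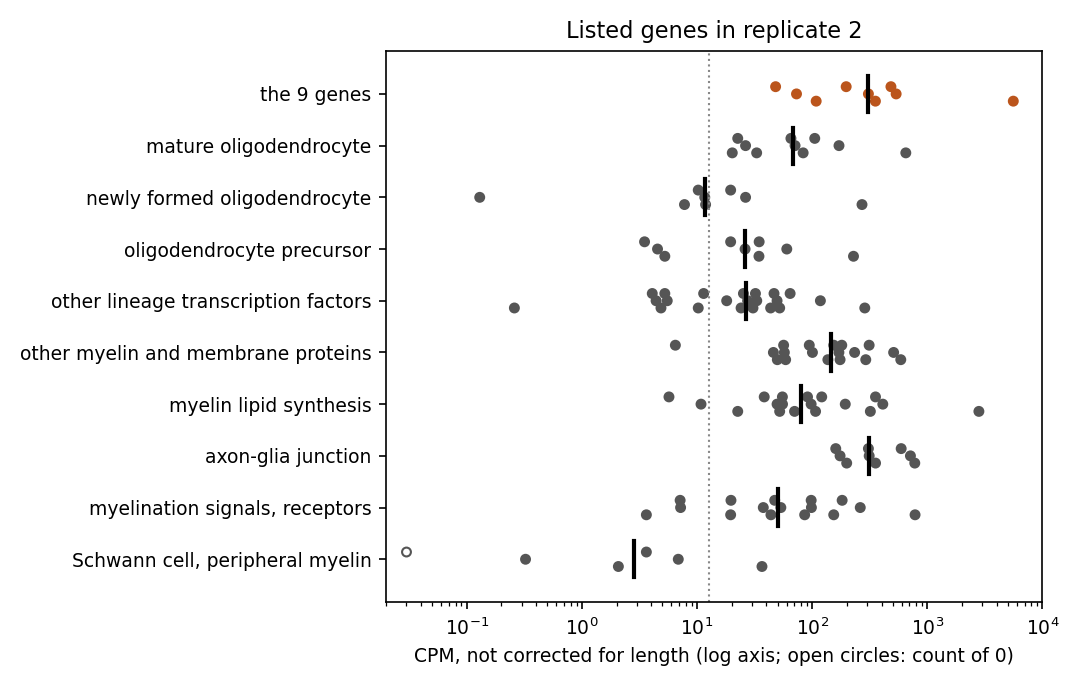
CPM in replicate 2 of each gene in the lineage and pathway lists (points, log axis; open circles are counts of 0), with a black bar for the median of each list and a dotted line for the median of all genes (12.7 CPM). The 9 genes have a median of 308 CPM, mature oligodendrocyte genes 68.2 CPM and genes of Schwann cells and peripheral myelin 2.85 CPM.

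All 9 genes reached 10 counts, and a list of Schwann cell and peripheral myelin genes was low in its median. Of its 6 genes 4 reached 10 counts, against 77% of all genes. The median was 2.85 CPM, against 12.7 CPM for all genes. Ncmap, a gene of peripheral myelin, had 0 counts, for which a limit of 3 counts gives 0.195 CPM and the exact interval ends at 0.239 CPM. Pmp22, which other cells also express, was the highest at 36.6 CPM, followed by Cdh19 at 6.88 CPM and Egr2 at 3.63 CPM. Other cells of the tissue were present in the same library: the neuron list, led by Snap25, Syt1 and Map2, ranged from 137 to 2479 CPM. The astrocyte list, led by S100b, Aldoc and Gfap, ranged from 25.6 to 1170 CPM, and S100b is also expressed by oligodendrocytes. Microglia genes, led by Csf1r, C1qa and P2ry12, lay between 10.6 and 61.7 CPM. Endothelial genes, led by Cldn5, Flt1 and Slco1a4, lay between 12.8 and 84.1 CPM. The choroid plexus and ependyma list was also low in its median, at 3.24 CPM against 12.7 CPM for all genes. It was led by Ttr at 176 CPM, with Foxj1 at 8.56 CPM and Clic6 at 4.15 CPM next. The part of these cells in the reads of Olig1, Olig2 or Sox10 was not tested.

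A replicate check was possible only for related genes that stand early in the alphabet. Of 9 listed genes associated with oligodendrocytes, 5 were held by the files of both replicates 2 and 3, and replicate 1 held none of them. Aatk, a kinase gene, had 4362 counts in replicate 2 and 4424 in replicate 3. Abca2, the gene of a lipid transporter abundant in oligodendrocytes, had 6328 and 7706 counts. Adamts4, a metalloproteinase gene that marks oligodendrocytes in the mouse brain, had 458 and 681 counts. These counts need scaling to be compared, because the depth of replicate 3 is unknown, and TMM factors from edgeR were used, computed on the 243 common genes that reached 10 counts in both libraries.

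After scaling, Aatk had 4393 ± 59.1 (SD, n = 2), with replicate 3 at 0.981 times replicate 2 (95% counting interval 0.941 to 1.02). Abca2 had 7007 ± 810.0 (SD, n = 2), with replicate 3 at 1.18 times replicate 2 (1.14 to 1.22). For Adamts4 the scaled count was 568 ± 144 (SD, n = 2), and replicate 3 stood at 1.44 times replicate 2 (1.28 to 1.62). Abca8a (1342 ± 93.7, SD, n = 2) and Abca8 (229 ± 26.4, SD, n = 2), both related lipid transporter genes whose reads may be shared between them, were at 1.10 times (1.02 to 1.19) and 1.18 times (0.976 to 1.42). Replicate 3 was the higher for 4 of the 5 genes and near equal for Aatk. None of the 5 was over 1.5-fold apart. Of the 243 shared genes 10.3% were, and 5 genes are too few to differ from that share. The 5 genes were 1.18-fold apart in the median and all shared genes 1.12-fold. These values describe the spread between those libraries for related genes and give no replicate value for the 9 genes themselves.

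**Figure D4:**
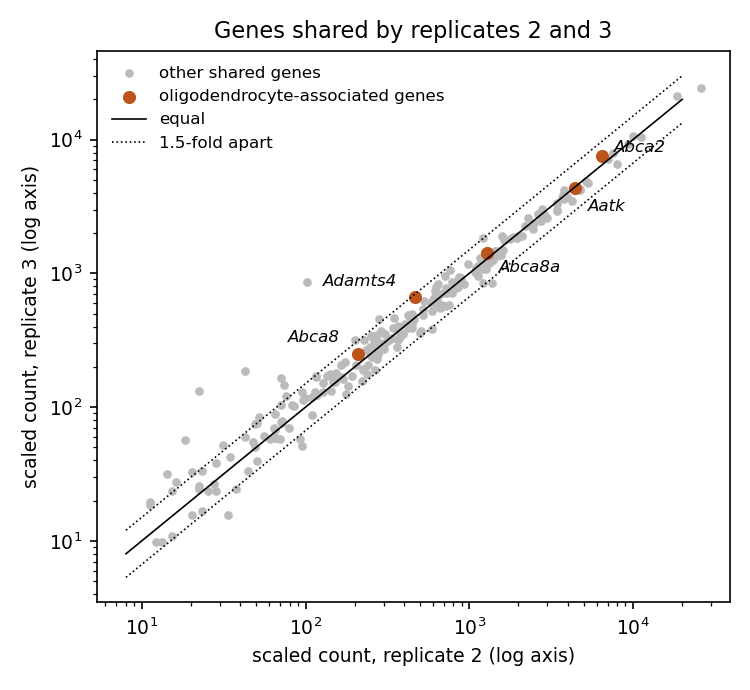
Scaled counts of the 243 genes with at least 10 counts in both replicate 2 and replicate 3 (log axes), with the 5 oligodendrocyte-associated genes in orange, a solid line for equal values and dotted lines for 1.5-fold. The 5 genes lie between the dotted lines, with Adamts4 nearest to the upper one at 1.44 times.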

How the data were processed

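RNA of the hippocampus was measured in 3 samples of 1 group. Libraries came from TRIzol-extracted RNA after mRNA capture, with a Vazyme kit and conversion to the MGI format, per the labels' protocols. SAMtools, HISAT2, Bowtie2, HTSeq, StringTie, Cufflinks, Trimmomatic and DESeq are named in the submitters' processing notes with neither version nor role. The genome build and the strand setting were not given in the sources used here. The authors deposited raw counts per gene, with 1 file for each sample. Replicate 2 held 15417009 counts over 18560 genes, and the tables used here for replicates 1 and 3 stop within a row after 12 and 307 genes, so their depth is unknown.

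Genes were matched by gene identifier to RefSeq GRCr8, which gave symbols for 17515 of the 18560 genes, and coordinates are given only for RefSeq sequences. From the deposited counts, CPM was computed with 95% Clopper-Pearson intervals, and ratios of counts with exact conditional binomial intervals. The interval of the ratio of class medians used the delta method on log counts. Detection was set at 10 counts, and a count of 0 allows up to 3 counts. Replicates 2 and 3 were scaled over 243 shared genes with TMM in edgeR 4.0.16, and the median of ratios of DESeq2 1.42.0 was an alternative. The scaling was tested on simulated data. No test between conditions was made, the samples being of a single group.

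The members and lists were chosen with earlier results of these data known. The genes named are the 9 genes, the 3 with the highest CPM of each list, and every gene of the early-alphabet list held by more than 1 file; a gene under 10 counts, an overlapping gene or other gene named beside these was chosen after its values were seen. Adgrg1, Adora1 and Adipor2 were held by replicate 2 alone. Levels per kilobase were planned but had no lengths to draw on. Some results are not reported here.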

Additional observations from a re-analysis of the deposited data

How the results depend on the processing

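The ratio of the myelin class to the transcription factor class kept its direction under every alternative run. Against 5.73 for the medians it was 11.6 for class means and 23.1 for class sums, where Mbp holds 72.6% of the counts of the 9 genes, and 4.84 for medians without Mbp. It was 5.60 with medians of log2(CPM + 1). Leaving out each of the other 8 genes in turn, an alternative chosen after seeing the data, gave 3.10 without Olig2, 3.41 without Sox10, 4.84 without Mobp or Cnp, 6.61 without Mag, Mog or Cldn11 and 6.91 without Olig1. With only 3 factors the median rests on Sox10. Leaving the 100 highest genes out of the denominator raised every CPM by a factor of 1.19. The counts of the 9 genes equalled 0.769% of the full total and 0.914% of the reduced one. The reduced total does not hold Mbp, whose counts stayed among those of the 9 genes, so the second value is not a share. Detected genes among the 145 other listed genes with a row numbered 140 at 10 counts, 144 at 1 count and 137 at 50 counts. Over all 18560 genes these numbers were 14295, 16857 and 12068. All 9 genes passed each minimum. The median ratio of replicate 3 to replicate 2 over the 5 related genes was 1.18, and 1.17 to 1.19 under the other scalings and with no filter. Without replicate 1 it was also 1.18, since that file holds none of these genes, and leaving out replicate 2 or 3 left no value. A correction for length was not run for want of transcript lengths. No paired analysis was possible because the design has a single group.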
